A study of Mus musculus with 9 samples.

Results

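The 10 genes described here encode ligands, receptors, intracellular mediators, an antagonist and a target of the transforming growth factor beta (TGF-beta) and bone morphogenetic protein (BMP) pathways, out of 12393 genes measured. They were taken as a listed set: Tgfb1, Tgfb2, Tgfb3, Bmp4, Tgfbr1, Tgfbr2, Smad3, Smad7, Grem1 and Id1. All 10 were on the array, with 17 probe sets that the platform annotation gives to exactly 1 gene. RNA from 3 mouse fibroblast lines was hybridised to Affymetrix arrays, 3 per line. SV5 NN4 is labelled as a stable clone with SV40 large T antigen, a viral oncoprotein, and added wild-type Nras. SV5 is a stable clone transformed by SV40 large T antigen without added Nras. NIH 3T3, the wild-type control, is the parent line of both. Each derivative is 1 clone, so clone and transgene cannot be told apart. All 3 lines grew in medium with calf serum, and the labels name no added TGF-beta or BMP.

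TGF-beta ligands are secreted as latent complexes that are stored in the matrix and activated outside the cell. An active ligand brings type II and type I receptor kinases together, and the type I receptor phosphorylates Smad proteins, which enter the nucleus with Smad4 and regulate genes. BMP ligands use related receptors and another set of Smads, with the Id genes among their well-known targets, while secreted proteins such as gremlin bind BMPs and keep them from their receptors. In fibroblasts, TGF-beta is best known as an inducer of matrix genes.

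Levels are given as log2(intensity + 1), and a gene's values come from its brightest probe set (highest mean over 9 arrays) unless another is named. Bacterial control transcripts of 9 probe sets read 3.18 to 4.25 on this scale, a range treated here as the floor. On all 9 arrays 12 of the 17 probe sets lay above it and 2 within it. Differences are those of a limma fit in which arrays of equal replicate number are paired, and a probe set was called where its adjusted p, Benjamini-Hochberg over all 22690 probe sets, was under 0.05. Replicate numbers explained 61.1% of the variation over all probe sets and lines 21.8%. As a list the fibroblast markers were bright in all lines. Array means over 9 genes were 10.32 to 10.81 in SV5 NN4, 11.13 to 11.61 in SV5 and 10.76 to 11.76 in NIH 3T3. Lum, a gene of that list, was dim, averaging 4.36 in SV5 NN4, 4.73 in SV5 and 6.26 in NIH 3T3. The epithelial, macrophage, endothelial and muscle lists, each with 6 of 6 genes measured, had array means of 4.1 to 5.24 in SV5 NN4, 4.17 to 5.28 in SV5 and 4.28 to 5.52 in NIH 3T3. The 3 Nras probe sets differed by 0.05 to 0.27 between SV5 NN4 and SV5 (adjusted p = 0.55 to 0.98, interval bounds from -0.36 to 0.62), so the arrays did not show the added Nras named in the labels. The labels do not say whether these probe sets match the added sequence. Of the 3, 1 rose by 1.02 in SV5 NN4 relative to NIH 3T3 (adjusted p = 0.046 in limma) and stood 0.97 higher in SV5 than in NIH 3T3 (adjusted p = 0.12). The brightest stood 0.78 above NIH 3T3 in SV5 NN4 (adjusted p = 0.052 in limma) and 0.72 above it in SV5 (adjusted p = 0.12). The remaining probe set differed from NIH 3T3 by 0.24 and -0.03.

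Grem1, which encodes gremlin, was the only one of the 10 genes with a call, and it was lower in SV5 NN4 than in NIH 3T3. Its levels on replicates 1, 2 and 3 were 4.13, 4.45 and 4.09 in SV5 NN4, then 4.35, 4.34 and 4.01 in SV5, and 5.61, 5.3 and 4.75 in NIH 3T3. All 3 NIH 3T3 arrays were above all 6 arrays of the derivative lines, whose levels lay in or just above the control range. Grem1 fell by 1 (log2) in SV5 NN4 relative to NIH 3T3 (limma, SE 0.17, 95% interval -1.4 to -0.6, adjusted p = 0.045, lower in 3 of 3 pairs). The difference of SV5 from NIH 3T3 was -0.99 (SE 0.17, interval -1.39 to -0.59), but it was not called (adjusted p = 0.11), and the 2 comparisons share the NIH 3T3 arrays. Between SV5 NN4 and SV5 the difference was -0.01 (interval -0.41 to 0.39). The means of SV5 NN4 and SV5, 4.22 and 4.23, lay within the control range, so these are differences of measured signal and give no fold of transcript, and with a pseudocount of 16 both differences from NIH 3T3 were -0.64. The call was narrow: it was lost without the pairing (adjusted p = 0.48), after centring or quantile normalization of the arrays (adjusted p = 0.052 and 0.065), with a pseudocount of 16 (adjusted p = 0.075), with SV5 left out (adjusted p = 0.14), and without any single array other than NIH 3T3 replicate 1 (adjusted p from 0.051 to 0.2 in limma).

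The 250 bases before a transcript start, from the RefSeq promoter table of GRCm38.p6, are shown for Grem1, which carried the call, and for Tgfb2 and Tgfbr2, whose levels differed most between SV5 NN4 and SV5. They run 5′ to 3′ on the minus strand, and capitals mark matches, on either strand, to the letters searched.
Grem1 chr2:113758649-113758898: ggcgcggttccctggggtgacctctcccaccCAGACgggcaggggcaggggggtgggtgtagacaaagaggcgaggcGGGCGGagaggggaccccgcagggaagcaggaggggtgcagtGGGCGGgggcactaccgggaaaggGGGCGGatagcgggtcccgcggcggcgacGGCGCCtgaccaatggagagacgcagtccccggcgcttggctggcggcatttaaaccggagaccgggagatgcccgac
Tgfb2 chr1:186705990-186706239: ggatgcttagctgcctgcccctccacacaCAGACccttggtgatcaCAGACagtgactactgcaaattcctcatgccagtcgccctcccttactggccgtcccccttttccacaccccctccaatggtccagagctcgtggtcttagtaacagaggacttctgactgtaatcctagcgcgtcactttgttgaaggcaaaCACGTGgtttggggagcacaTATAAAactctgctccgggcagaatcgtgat
Tgfbr2 chr9:116175364-116175613: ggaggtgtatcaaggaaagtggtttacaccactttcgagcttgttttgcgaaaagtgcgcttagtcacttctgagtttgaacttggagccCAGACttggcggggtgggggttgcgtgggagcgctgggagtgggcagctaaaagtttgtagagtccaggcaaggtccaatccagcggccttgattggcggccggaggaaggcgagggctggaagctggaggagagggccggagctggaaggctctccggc
Both strands were searched for the Smad box CAGAC and for the palindromic Smad element GTCTAGAC. The GC element of BMP-responsive genes was searched as GGCGCC, and the GC box, a binding site of Sp family factors, as GGGCGG. For the AP-1 site the letters were TGACTCA. For the cAMP-response element they were TGACGTCA. The E-box was searched as CACGTG and the TATA box of core promoters as TATAAA. No match overlapped another. In the Grem1 window there were a Smad box at -219, GC boxes at -173, -131 and -107, and GGCGCC at -78, counted in bases from the start. The Tgfb2 window held Smad boxes at -221 and -204, an E-box at -51 and a TATA box at -31, and that of Tgfbr2 held a Smad box at -160. Among 32851 windows of this length, 42.2% held CAGAC, 32.7% GGGCGG, 12.4% TATAAA, 9.59% GGCGCC and 6.02% CACGTG. A Smad box is thus common in such windows, and these matches are a description of the letters only. The table held 7 of the 10 genes.

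**Figure D1:**
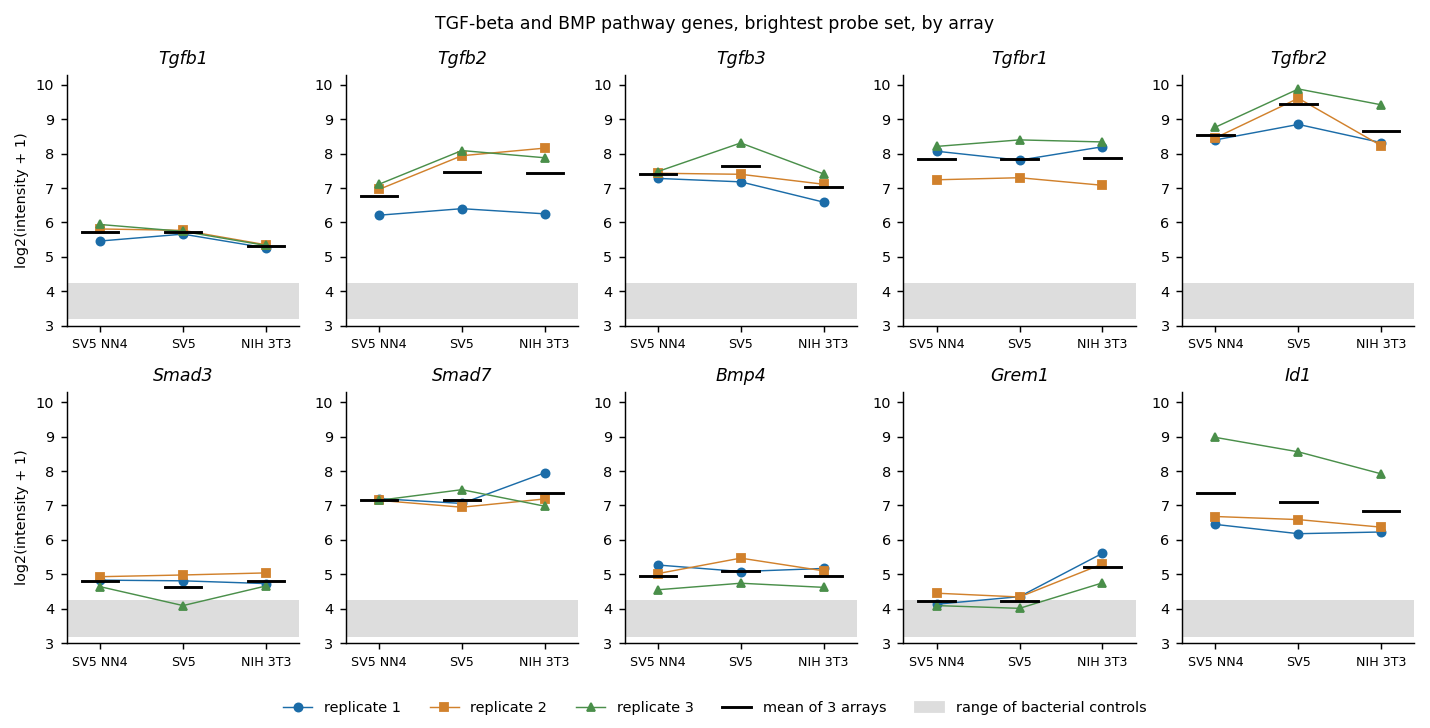
Level of each of the 10 genes at its brightest probe set, as log2(intensity + 1) on the vertical axis, in SV5 NN4, SV5 and NIH 3T3 on the horizontal axis. Points are single arrays, lines join arrays of equal replicate number, black bars are means of 3 arrays, and the grey band is the 3.18 to 4.25 of the bacterial controls. Grem1 sits in or just above the band in both derivative lines and at 4.75 to 5.61 in NIH 3T3, while Id1 separates by replicate number.

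Among the ligands, Tgfb2 was lower in SV5 NN4 than in SV5 at all 3 of its probe sets, although none of the differences was called. The probe set 1450923_at read 5.06, 6.07 and 6.37 in SV5 NN4, against 6.19, 7.54 and 7.45 in SV5, and 5.1, 6.78 and 7.38 in NIH 3T3. In each pair the SV5 NN4 array was below its SV5 partner by 1.08 to 1.46, yet the lines overlapped, because the replicate 1 arrays were low in every line. The difference between SV5 NN4 and SV5 was -1.23 (SE 0.21, interval -1.73 to -0.73, adjusted p = 0.056 in limma). It passed the threshold in the fit restricted to these lines (adjusted p = 0.0074), among the brighter probe sets (adjusted p = 0.036), without NIH 3T3 replicate 1 (adjusted p = 0.012) and without NIH 3T3 replicate 3 (adjusted p = 0.03); with other single arrays left out it was -1.41 to -1.14, with adjusted p up to 0.36, and without the pairing its adjusted p was 1.

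The brightest Tgfb2 probe set, 1423250_a_at, read 6.21, 6.96 and 7.11 in SV5 NN4, against 6.4, 7.94 and 8.09 in SV5, and 6.25, 8.16 and 7.88 in NIH 3T3. SV5 NN4 was again the lowest line in every pair, but by little at replicate 1. Its difference from SV5 was -0.71 (interval -1.23 to -0.19, adjusted p = 0.21) and that from NIH 3T3 was -0.67 (interval -1.19 to -0.15, adjusted p = 0.19). At 1450922_a_at the corresponding values were -0.69 (adjusted p = 0.22) and -0.7 (adjusted p = 0.17), and at 1450923_at SV5 NN4 differed from NIH 3T3 by -0.58 (adjusted p = 0.23; 0.045 without NIH 3T3 replicate 1). The 3 probe sets disagreed on SV5 against NIH 3T3, with 0.64 at 1450923_at (interval 0.14 to 1.14, adjusted p = 0.25), 0.04 at 1423250_a_at and -0.01 at 1450922_a_at.

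Tgfb1, the best-studied TGF-beta isoform, was dim, at 5.46, 5.81 and 5.94 in SV5 NN4, then 5.66, 5.77 and 5.74 in SV5, and 5.26, 5.35 and 5.33 in NIH 3T3. Both derivative lines lay above NIH 3T3 on every array, while they overlapped with each other. The difference was 0.42 for SV5 NN4 against NIH 3T3 (interval 0.12 to 0.72, adjusted p = 0.16) and 0.41 for SV5 against NIH 3T3 (interval 0.11 to 0.71, adjusted p = 0.23), so neither was called. SV5 NN4 minus SV5 was 0.01 (interval -0.29 to 0.31). The pairs of SV5 and NIH 3T3 were alike, at 0.41, 0.41 and 0.4, whereas those of SV5 NN4 and NIH 3T3 ran from 0.2 to 0.6.

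Tgfb3, the third TGF-beta isoform, read 7.28, 7.43 and 7.48 in SV5 NN4, then 7.18, 7.4 and 8.31 in SV5, and 6.59, 7.11 and 7.41 in NIH 3T3. SV5 replicate 3 stood above the other 8 arrays, and the lines overlapped. SV5 was above NIH 3T3 in each pair, by 0.6 on average (interval 0.13 to 1.06, adjusted p = 0.25), and SV5 NN4 was above NIH 3T3 in each pair by 0.36 (interval -0.1 to 0.83, adjusted p = 0.41). SV5 NN4 minus SV5 was -0.23 (interval -0.7 to 0.23, adjusted p = 0.78), which came from the third pair at -0.83, while the others were 0.1 and 0.02.

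Bmp4, a BMP ligand of mesenchymal cells, read 5.27, 5.02 and 4.55 in SV5 NN4, then 5.08, 5.47 and 4.74 in SV5, and 5.17, 5.1 and 4.62 in NIH 3T3. The lines overlapped fully, and replicate 3 was the lowest array of each. Its differences were -0.15, 0.13 and -0.02 for SV5 NN4 minus SV5, SV5 minus NIH 3T3 and SV5 NN4 minus NIH 3T3, with intervals reaching from -0.5 to 0.48 and adjusted p from 0.72 to 0.97. No pattern by line was visible for Bmp4.

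Tgfbr2, the type II receptor kinase that binds TGF-beta first, had the clearest line pattern among the receptors. Its brightest probe set, 1426397_at, read 8.4, 8.46 and 8.77 in SV5 NN4, against 8.85, 9.61 and 9.88 in SV5, and 8.32, 8.23 and 9.42 in NIH 3T3. Every SV5 NN4 array was below every SV5 array, and NIH 3T3 overlapped with both. SV5 NN4 minus SV5 was -0.9, a 1.87-fold lower level (SE 0.22, interval -1.43 to -0.38, adjusted p = 0.13), not called here but called in the fit restricted to these lines (adjusted p = 0.031). SV5 minus NIH 3T3 was 0.79 (interval 0.27 to 1.32, adjusted p = 0.2), with pairs of 0.53, 1.38 and 0.47, and SV5 NN4 minus NIH 3T3 was -0.11 (interval -0.64 to 0.42). These comparisons share the SV5 arrays, so the opposite signs are not independent of each other. The other Tgfbr2 probe sets did not show the pattern: 1425444_a_at differed by -0.23 to 0.09, and 1422019_at lay within the control range on all 9 arrays.

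Tgfbr1, the type I receptor kinase, differed by at most 0.04 between lines at its brightest probe set, 1420895_at. It read 8.07, 7.24 and 8.21 in SV5 NN4, then 7.81, 7.3 and 8.4 in SV5, and 8.2, 7.08 and 8.34 in NIH 3T3. Replicate 2 was the lowest array of each line, and 94.2% of the variation lay between replicate numbers against 0.1% between lines. The differences were 0.01, -0.04 and -0.03, with interval bounds between -0.39 and 0.36. The probe set 1420894_at lay within the control range on all 9 arrays, and 1420893_a_at was at 4.11 to 4.4 on every array but NIH 3T3 replicate 2, which read 5.29.

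**Figure D2:**
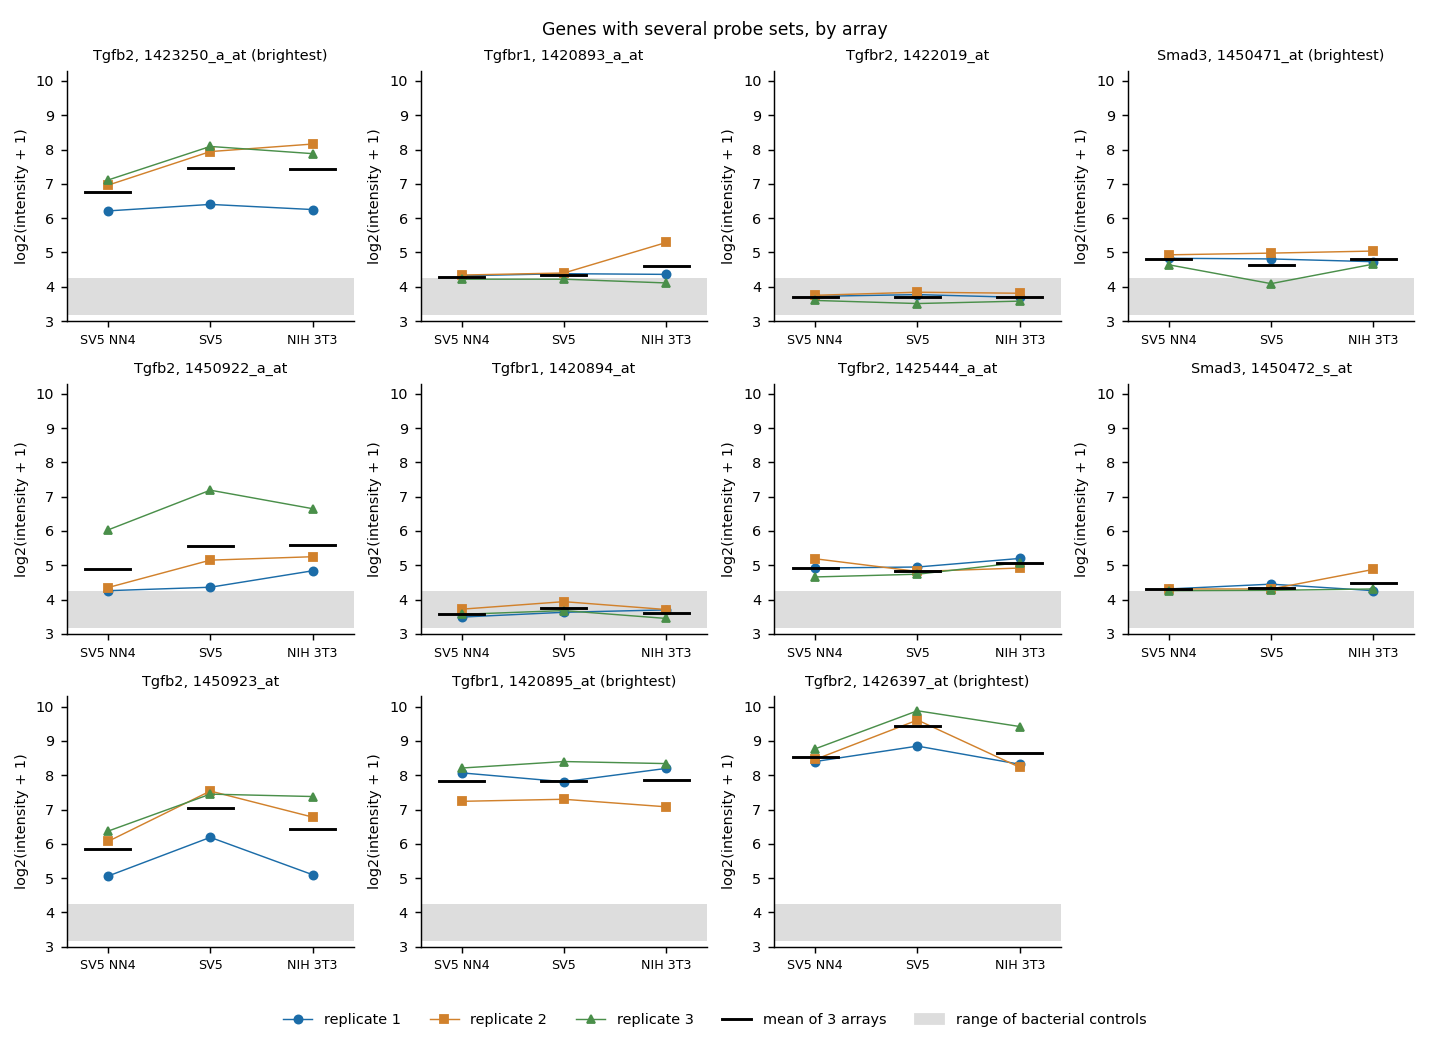
Level of every probe set of Tgfb2, Tgfbr1, Tgfbr2 and Smad3, as log2(intensity + 1) on the vertical axis, in SV5 NN4, SV5 and NIH 3T3. Points are single arrays joined by replicate number, black bars are means of 3 arrays, and the grey band is the range of the bacterial controls. All 3 Tgfb2 probe sets have their lowest mean in SV5 NN4, while for Tgfbr2 the peak in SV5 is seen at 1426397_at and the other probe sets stay at 3.51 to 5.2.

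Smad3, a receptor-activated Smad of the TGF-beta branch, was dim at both probe sets and had no call. The brighter, 1450471_at, read 4.83, 4.93 and 4.64 in SV5 NN4, then 4.81, 4.98 and 4.09 in SV5, and 4.73, 5.04 and 4.66 in NIH 3T3. The lines overlapped, and SV5 replicate 3 alone dropped into the control range. The differences ran from -0.19 to 0.18 at this probe set and from -0.19 to -0.05 at 1450472_s_at. The intervals at 1450471_at reached from -0.56 to 0.55.

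Smad7, the inhibitory Smad that TGF-beta induces and that blocks the type I receptor, read 7.2, 7.15 and 7.15 in SV5 NN4, then 7.06, 6.95 and 7.46 in SV5, and 7.95, 7.19 and 6.98 in NIH 3T3. NIH 3T3 replicate 1 was the highest of the 9 arrays, and the lines overlapped. SV5 NN4 minus SV5 was 0.01 (interval -0.56 to 0.58), SV5 minus NIH 3T3 was -0.21 (interval -0.78 to 0.36) and SV5 NN4 minus NIH 3T3 was -0.2 (interval -0.78 to 0.37). Smad7 was the member whose variation was least tied to either factor, with 68.9% neither between lines nor between replicate numbers.

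Id1, a dominant-negative helix-loop-helix protein and a direct target of BMP signalling, varied mostly by replicate number. It read 6.45, 6.68 and 8.98 in SV5 NN4, then 6.18, 6.59 and 8.56 in SV5, and 6.23, 6.37 and 7.92 in NIH 3T3. The replicate 3 array was above the others by more than any difference between lines, and 93% of the variation lay between replicate numbers against 4.5% between lines. The replicate 3 arrays also had the highest upper quartile of intensity in each line, at 239.7 in SV5 NN4, 235 in SV5 and 218.7 in NIH 3T3, against 165.2 to 187.3 on the other 6 arrays, and its part in the Id1 values was not tested. SV5 NN4 was nevertheless the highest line in each pair, with 0.53 over NIH 3T3 (interval 0.11 to 0.96, adjusted p = 0.2) and 0.26 over SV5 (interval -0.16 to 0.69, adjusted p = 0.7), neither called. SV5 minus NIH 3T3 was 0.27 (interval -0.16 to 0.69, adjusted p = 0.54).

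**Figure D3:**
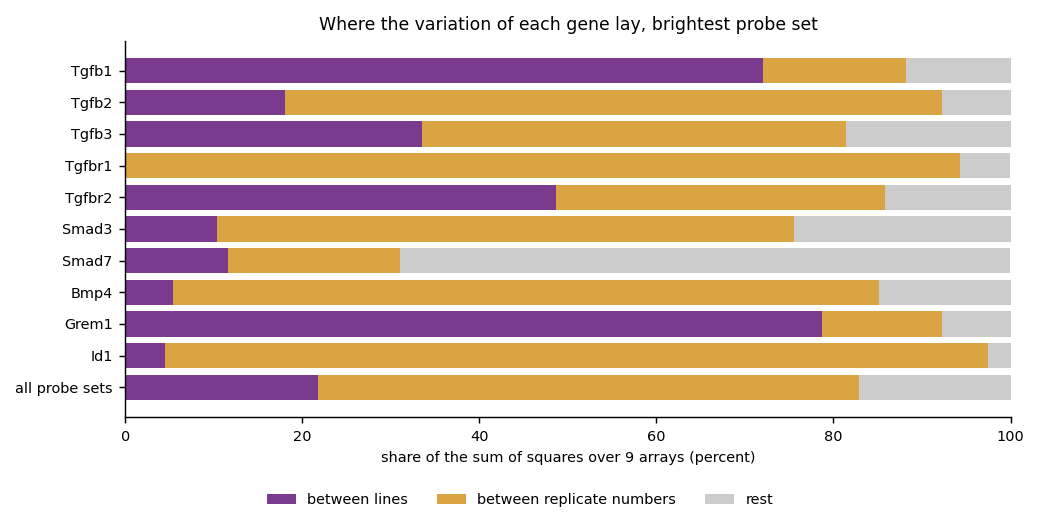
Share of the sum of squares over 9 arrays, in percent on the horizontal axis, that lay between lines, between replicate numbers and in the rest, for each gene at its brightest probe set and for all 22690 probe sets together. Replicate number outweighed line in 7 of 10 genes, most in Tgfbr1 and Id1, while for Grem1 and Tgfb1 the lines took 78.7% and 72%.

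Between SV5 NN4 and SV5, 0 of 17 probe sets were called in limma, against 0.864% of all probe sets, and 4 were lower and 0 higher at an unadjusted p under 0.05, against 6.34% lower and 6.64% higher of all. The 4 were the 3 of Tgfb2 and 1 of Tgfbr2, so that 2 genes supplied them all, and the probe sets of 1 gene are not independent. Between SV5 and NIH 3T3, 0 were called, against 0.0617% of all, and 4 were higher and 1 lower at an unadjusted p under 0.05, against 8.56% and 5.65% of all. Between SV5 NN4 and NIH 3T3, 1 was called, Grem1, against 1.65% of all and 0.516% of all called lower, and 2 were higher and 4 lower at an unadjusted p under 0.05, against 10.0% and 7.10%. The median differences over the 17 probe sets were -0.04, 0.02 and -0.11, beside 0.01, -0.04 and -0.03 over all probe sets. The 3 pairs had 1 sign at 6, 6 and 7 of the 17 probe sets in the 3 comparisons, beside 40.5%, 30.3% and 35.9% of all. Arrays of SV5 NN4 lay wholly above those of SV5 at 0 probe sets and wholly below at 1, Tgfbr2, beside 4.21% and 3.72% of all. Arrays of SV5 lay wholly above those of NIH 3T3 at 1, Tgfb1, and wholly below at 1, Grem1, beside 2.16% and 2.39% of all. For SV5 NN4 and NIH 3T3 the same genes did so, beside 3.34% and 3.11% of all. Without the pairing, 0 of the 17 were called in any comparison, beside 0.0837%, 0.00441% and 0.0793% of all probe sets.

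**Figure D4:**
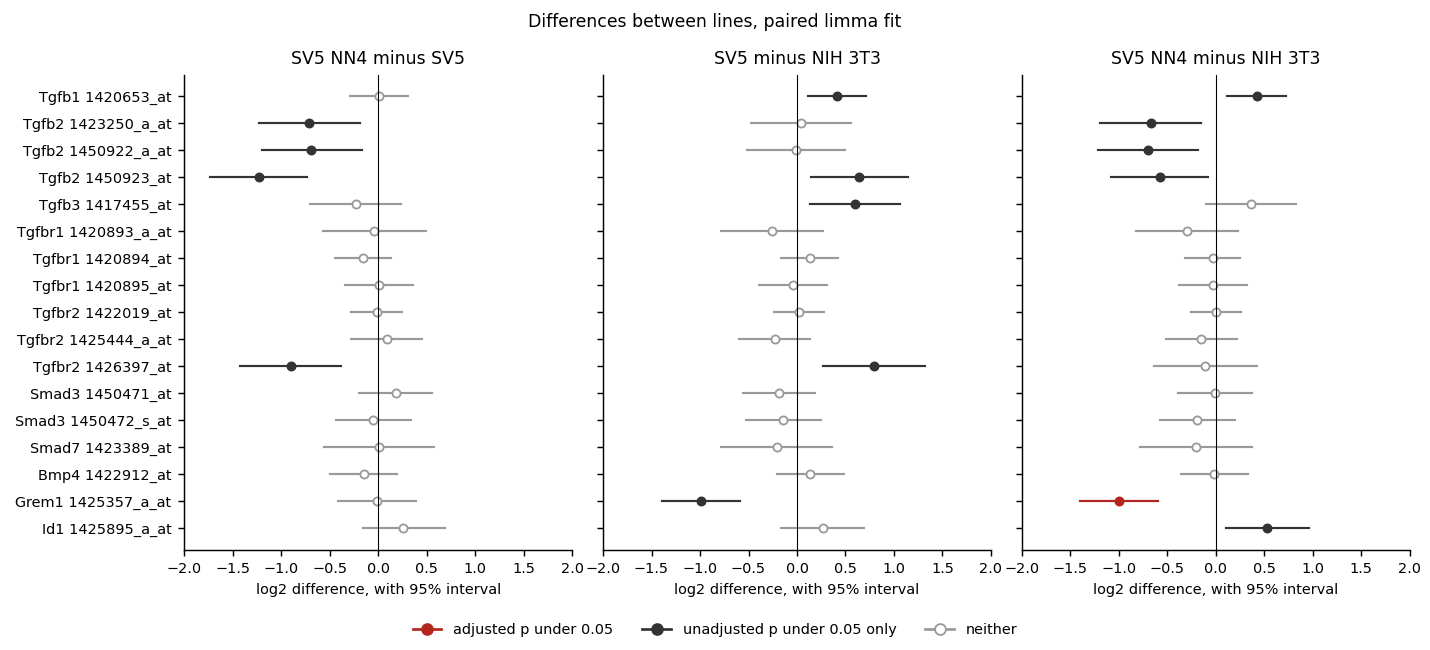
Log2 difference of each of the 17 probe sets on the horizontal axis, with its 95% interval from the paired limma fit, for SV5 NN4 minus SV5, SV5 minus NIH 3T3 and SV5 NN4 minus NIH 3T3. Filled points had an unadjusted p under 0.05, and red marks an adjusted p under 0.05. Grem1, at -1 in SV5 NN4 minus NIH 3T3, is the red point, and Tgfb2 at 1450923_at, at -1.23, lies farthest from 0 in SV5 NN4 minus SV5.

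Measures of RNA quality and fibroblast markers also differed between SV5 NN4 and SV5. The log2 ratio of 3' to 5' probe sets, which rises as RNA is degraded, was higher in SV5 NN4 than in SV5 in every pair. For Actb it read 4.08, 4.63 and 3.66 in SV5 NN4, against 3.74, 4.33 and 2.42 in SV5, and 4.26, 4.43 and 5.07 in NIH 3T3. For Gapdh it read 2.66, 3.53 and 3.05 in SV5 NN4, against 2.45, 3.03 and 2.36 in SV5, and 2.65, 2.99 and 5.22 in NIH 3T3. The fibroblast markers were lower in SV5 NN4 than in SV5 at 8 of 9 genes, with a median of -0.64, and Pdgfra fell by 2.1 (adjusted p = 0.0032 in limma) and Col3a1 fell by 1.05 (adjusted p = 0.034). Both calls were lost without the pairing (adjusted p = 0.17 for Pdgfra and 0.31 for Col3a1). Against NIH 3T3 the markers were also lower in SV5 NN4 at 8 of 9 genes, with a median of -0.47 beside -0.03 over all genes. At an unadjusted p under 0.05, 4 of the 9 were lower and 0 higher, beside 7.10% and 10.0% of all probe sets. Pdgfra was called lower there (adjusted p = 0.022 in limma), beside 0.516% of all probe sets. Their summed intensity was 23516 to 37480 per array in SV5 NN4, 37631 to 58197 in SV5 and 24727 to 50142 in NIH 3T3. Of the other marker lists, 0 genes were called in any comparison by limma. At an unadjusted p under 0.05, 1 macrophage gene was lower in SV5 and in SV5 NN4 than in NIH 3T3, and 1 muscle gene was lower in SV5 NN4 than in NIH 3T3. The part of RNA quality and of the fibroblast markers in the values of Tgfb2, Tgfbr2, Grem1 and the other pathway genes was not tested. In these bulk samples, fewer cells of a type and less RNA per cell cannot be told apart.

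The other genes of the pathway were examined by role, at any probe set for calls and at the brightest for medians and for counts at an unadjusted p. The shares of all probe sets given beside those counts also cover dim and second probe sets. No share over the brightest probe sets of all genes was computed. Among extracellular antagonists, 13 of 15 were measured, and Fstl1, which encodes the follistatin-related glycoprotein of fibroblasts, was called in SV5 NN4 against SV5. At 1448259_at it read 10.42, 10.07 and 10.56 in SV5 NN4, against 11.89, 11.35 and 11.77 in SV5, and 10.67, 10.58 and 11.24 in NIH 3T3. Every SV5 NN4 array lay below every array of SV5 and of NIH 3T3. Fstl1 fell by 1.32 in SV5 NN4 relative to SV5 (limma, SE 0.15, adjusted p = 0.019, lower in 3 of 3 pairs). At its brightest probe set the difference was -0.77 (adjusted p = 0.13), and the call at 1448259_at was lost without the pairing (adjusted p = 0.22) and without any 1 of the SV5 and SV5 NN4 arrays (adjusted p from 0.076 to 0.16). At an unadjusted p under 0.05, 1 antagonist was higher and 1 lower in SV5 NN4 than in SV5, beside 6.64% and 6.34% of all probe sets. Against NIH 3T3, 1 was higher and 2 lower in SV5, beside 8.56% and 5.65%. For SV5 NN4 against NIH 3T3, 0 were higher and 1 lower, beside 10.0% and 7.10%. The list medians were -0.04, -0.07 and -0.15 in these 3 comparisons.

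The remaining lists had 0 genes called in any of the 3 comparisons by limma, and their counts at an unadjusted p under 0.05 follow in the order SV5 NN4 minus SV5, SV5 minus NIH 3T3 and SV5 NN4 minus NIH 3T3. Of all probe sets, 6.34%, 5.65% and 7.10% were lower at that threshold and 6.64%, 8.56% and 10.0% higher, so that 1 gene of a list of 8 to 15 is near these shares. Of 15 other ligands measured, 0, 0 and 0 passed, and the brightest were Inhba, an activin subunit, with differences of 0.35, -0.48 and -0.13, and Inhbb, another, with 0.03, -0.15 and -0.12. Of 8 latency and storage genes, 1, 2 and 2 passed, all lower. The brightest of these were Itgav, the integrin chain that takes part in activating latent TGF-beta, with 0.22, -0.41 and -0.19, and Ltbp3, a latent TGF-beta binding protein, with 0.03, -0.65 and -0.62 (adjusted p = 0.99, 0.12 and 0.064). The other Ltbp3 probe set disagreed, with -0.3, 0.45 and 0.14. All 8 lay below 0 in SV5 NN4 against NIH 3T3, with a median of -0.42 beside -0.03 over all genes, while the median in SV5 NN4 against SV5 was -0.02. Against NIH 3T3, 6 of 6 endothelial markers (median -0.26) and 12 of the 15 other ligands (median -0.04) also lay below 0 in SV5 NN4.

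Of 13 other receptors and co-receptors, 2, 1 and 1 passed at an unadjusted p, all lower, with medians of -0.03, -0.09 and -0.08. The brightest were Acvr2a, an activin type II receptor, at 0.21, -0.29 and -0.08, and Bmpr1a, a BMP type I receptor, at -0.8, 0.47 and -0.33. The Bmpr1a difference between SV5 NN4 and SV5 was not called (adjusted p = 0.29), and the other Bmpr1a probe sets gave -0.59 to -0.01 there. The other Acvr2a probe set gave 0.5, -0.26 and 0.24 in the 3 comparisons. Its first difference, higher in SV5 NN4 than in SV5, had an unadjusted p of 0.007 in limma (adjusted p = 0.16). Of 11 other Smads and regulators, 1, 1 and 1 passed, the first and last lower and the middle one higher. Skil, a transcriptional repressor of Smads, differed by -0.11, -0.03 and -0.14, and Smad4, the shared partner Smad, by -0.03, 0.32 and 0.29. Another Smad4 probe set disagreed on the comparisons with NIH 3T3, with -0.15, -0.22 and -0.37 although it was nearly as bright, and the dimmest gave -0.24, 0.34 and 0.1.

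Of 15 measured genes known to respond to TGF-beta, 0 were called by limma (smallest adjusted p = 0.065, 0.16 and 0.08 in the 3 comparisons). At an unadjusted p under 0.05, 7 of 15 were lower and 0 higher in SV5 NN4 than in SV5, beside 6.34% and 6.64% of all probe sets, and 13 of 15 lay below 0, with a median of -0.37 beside 0.01 over all genes. Against NIH 3T3, 5 were lower and 0 higher in SV5 NN4, beside 7.10% and 10.0% of all probe sets, and all 15 lay below 0, with a median of -0.33 beside -0.03. In SV5 against NIH 3T3, 3 were higher and 2 lower, beside 8.56% and 5.65%, with a median of -0.06. The list as a whole was not tested, and these counts are at brightest probe sets while the shares are of all probe sets. The share of all genes below 0 was not computed. In SV5 NN4 against NIH 3T3, 6 of 6 endothelial, 5 of 6 epithelial and 5 of 6 macrophage markers also lay below 0. So did 12 of 15 other ligands and 4 of 11 other Smads and regulators. In SV5 NN4 against SV5, 6 of 6 endothelial and 1 of 6 epithelial markers lay below 0. Fn1, which encodes fibronectin and also stands in the fibroblast marker list, read 11.44, 11.08 and 12.48 in SV5 NN4, against 12.74, 12.68 and 13.54 in SV5, and 11.7, 10.95 and 13.26 in NIH 3T3. The Fn1 difference was -1.32 for SV5 NN4 minus SV5 (interval -1.9 to -0.74, adjusted p = 0.068; 0.0075 in the fit restricted to these lines). Acta2, smooth muscle actin, differed by -0.86 (adjusted p = 0.2) from SV5 and by -1.04 (adjusted p = 0.1) from NIH 3T3. The list shares Fn1 and Col1a1 with the fibroblast markers, most of which were lower in SV5 NN4 than in SV5 and than in NIH 3T3. Col1a1 averaged 10.41 in SV5 NN4 and 11.9 in SV5 at its brightest probe set, but 9.19 and 9.29 at the other. Smad7, which TGF-beta also induces, was counted with the members and not in this list. Of 9 BMP response genes, 0, 1 and 1 passed, both lower, and the brightest were Id3, at -0.25, 0.14 and -0.11, and Id2, at -0.04, 0.22 and 0.18.

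**Figure D5:**
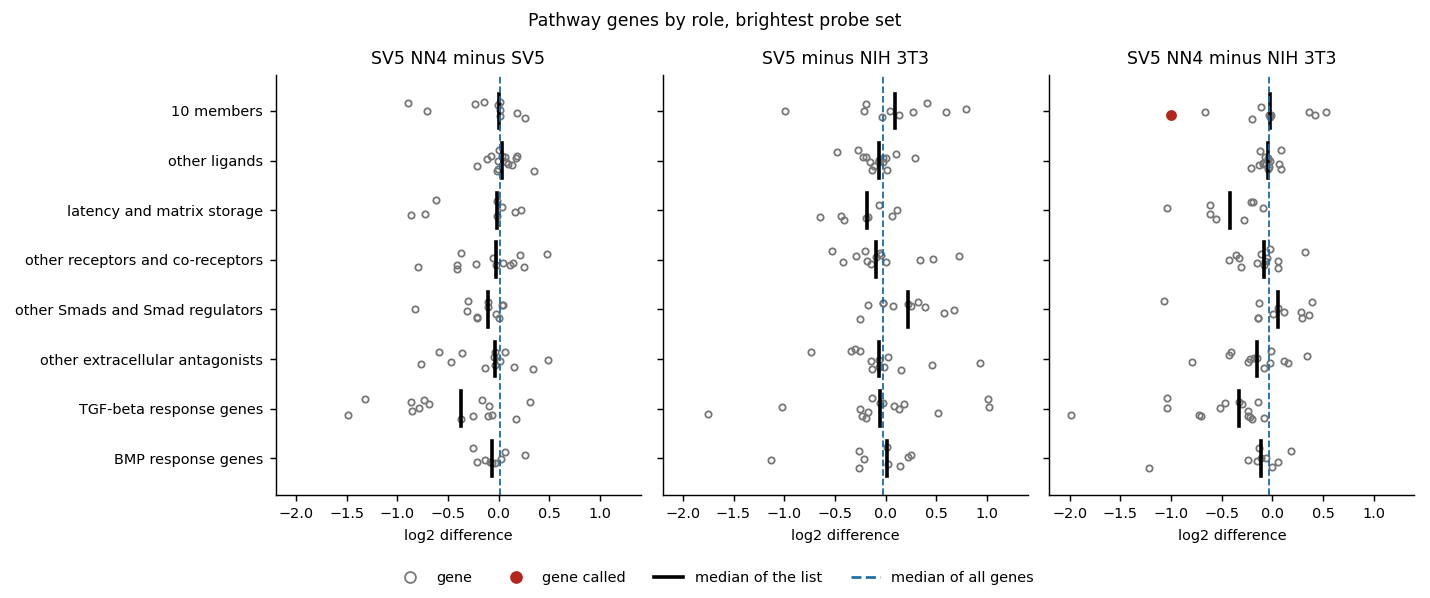
Log2 difference of each gene at its brightest probe set, on the horizontal axis, for the 10 members and for 7 lists of other pathway genes by role, in SV5 NN4 minus SV5, SV5 minus NIH 3T3 and SV5 NN4 minus NIH 3T3. Open circles are genes, red circles are called genes, black bars are list medians and the dashed line is the median of all genes. The TGF-beta response genes have medians of -0.37 and -0.33 in both comparisons of SV5 NN4, and Grem1 is the red circle.

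The genes that followed Grem1 most closely over the 9 arrays, after each replicate number's mean was subtracted, were Mindy1 (r = 0.978), Fkbp1a (r = 0.974) and Sh3bgrl (r = 0.972), among 7142 genes at or above the median probe set level. Mindy1 averaged 8.6 in SV5 NN4, 8.62 in SV5 and 9.28 in NIH 3T3. Like Grem1, it was highest in NIH 3T3, which follows from its choice by likeness to Grem1 on the same arrays. Mindy1, Fkbp1a and Sh3bgrl were each read at a probe set whose name ends in _x_at. Whether these probe sets also bind other transcripts was not tested. Grem1 itself lay in or just above the control range in SV5 NN4 and SV5, so shared background signal cannot be told from shared expression. The 9 arrays come from 3 lines, so few independent points lie behind these correlations, which are given as a description.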

How the data were processed

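RNA of 3 mouse cell lines was hybridised to 9 arrays, 3 per line. The values deposited are linear intensities of 22690 probe sets, made with RMA per the submitters' processing notes, with no version or settings. Arrays had median intensities from 56.2 to 62.35 but upper quartiles from 165.2 to 239.7, highest at replicate 3 in every line, so the deposited values do not share 1 distribution. Precision is limited by having 3 arrays a line.

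Symbols came from the platform annotation, with exactly 1 for 20393 probe sets, several for 691 and none for 1606, and all 10 members matched a RefSeq gene table of GRCm38.p6. Intensities were used as log2(intensity + 1). The 64 control probe sets stayed in the fits. A limma 3.58.1 model (R 4.3.3) held 1 mean per line plus the replicate number as a block, with eBayes at its defaults, and p-values were adjusted by the Benjamini-Hochberg method across the whole array. The fit was tested on simulated data made with the same replicate terms and independent noise, so that test could not check the pairing. Groups and replicate numbers came from the sample titles. After group means were subtracted, the 9 equal-numbered pairs of arrays from different lines correlated with r from 0.26 to 0.84, and the 18 other pairs from -0.73 to 0.11. The pairing comes from these data, since the labels name no shared culture or day. The labels do not say whether replicates were separate cultures, and the p-values reflect array-to-array spread that may be technical. No 2 arrays were identical.

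The members, lists and fit were chosen with earlier results of these data known. All members are named, with up to 4 called genes per list by size of difference or, where none was called, the 2 of highest mean level, and the 3 genes most like a called member. Alternatives were no replicate block, median centring, quantile normalization, a pseudocount of 16, only brighter probe sets, only the lines compared, and each array left out in turn.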

Additional observations from a re-analysis of the deposited data

How the results depend on the processing

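Calls were fragile, differences less so. Without the replicate block 19 probe sets were called between SV5 NN4 and SV5 in place of 196, 1 between SV5 and NIH 3T3 in place of 14, and 18 between SV5 NN4 and NIH 3T3 in place of 375. With only the lines compared, the counts were 1504, 0 and 18. SV5 against NIH 3T3 had 0 calls after median centring, quantile normalization or a pseudocount of 16. With single arrays left out the counts were 14 to 950, 0 to 49 and 13 to 1239, the highest each time without NIH 3T3 replicate 1. Member probe sets called between SV5 NN4 and SV5 were 0, but 1 among the brighter probe sets (Tgfb2), 2 with only these lines (Tgfb2 and Tgfbr2), and 0 to 1 with single arrays left out. Between SV5 NN4 and NIH 3T3 the 1 call, Grem1, became 0 without the block, after median centring, after quantile normalization, with a pseudocount of 16, with only these lines, and among the brighter probe sets, where only 7 of the 17 were tested and Grem1 was not. With single arrays left out it was 0 to 2. The size of the Grem1 difference stayed between -1.15 and -0.64 throughout. Inhba in SV5 NN4 against NIH 3T3 was -0.57 to 0.47 with single arrays left out, being 0.47 without NIH 3T3 replicate 1, in place of -0.13. The cause of these changes was not tested, and some settings also use fewer arrays or probe sets. Of 1365 alternative values of single probe sets, 100 others changed sign where both 95% intervals held 0. Signals near the bacterial controls limit what can be seen of Grem1, Smad3, Bmp4 and the dimmer receptor probe sets.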

Other observations

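These genes of the pathway lists were chosen after their values were seen, and none was called in the paired limma fit. Smad1, a receptor-activated Smad of the BMP branch, read 7.28, 7.47 and 8.53 in SV5 NN4, against 8.18, 8.02 and 9.56 in SV5, and 8.97, 8.19 and 9.34 in NIH 3T3 at its brightest probe set. SV5 NN4 was the lowest line at each replicate number, by -0.83 against SV5 (adjusted p = 0.15) and -1.07 against NIH 3T3 (adjusted p = 0.067), and the other Smad1 probe set gave -0.66 and -0.88. Id4, an Id family member, read 5.4, 5.96 and 5.86 in SV5 NN4, against 5.56, 5.96 and 5.98 in SV5, and 5.75, 6.7 and 8.45 in NIH 3T3 at its brightest probe set. SV5 NN4 minus NIH 3T3 was -1.22 there (adjusted p = 0.21), and -1.66 and -1.61 at the other probe sets (adjusted p = 0.083 and 0.17). The NIH 3T3 arrays were far apart, and at the last probe set replicate 1 ran the other way, at 4.14 in SV5 NN4 against 3.94 in NIH 3T3, so that 2 of 3 pairs were lower. Id1, in contrast, was 0.53 above. Snai1, a transcriptional repressor that TGF-beta induces, read 6.1, 6.31 and 6.63 in SV5 NN4, against 6.9, 7.15 and 7.23 in SV5, and 6.59, 6.51 and 6.62 in NIH 3T3. Its difference of -0.74 between SV5 NN4 and SV5 had an adjusted p of 0.065. Ltbp2, another latent TGF-beta binding protein family member, differed by -0.87 from SV5 and -1.04 from NIH 3T3 in SV5 NN4 (adjusted p = 0.15 and 0.08).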
